A study of Chlamydomonas reinhardtii with 27 samples.

Results

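The genes described here encode 3 enzymes that make or use UDP-glucose, in salt stressed *Chlamydomonas reinhardtii*. They are UGP2 (CHLREDRAFT_157049), a UDP-glucose pyrophosphorylase, UDP-glucose 6-dehydrogenase (CHLREDRAFT_185081), and UDP-sulfoquinovose synthase (CHLREDRAFT_27658). These 3 of the 19267 identifiers in the count table were taken because the paper names them by identifier, and all 3 were among the 16443 genes that passed the filter on low counts and were tested. The alga is unicellular, and the wild-type strain GY-D55 was grown with alternating light and dark in BG-11 medium. NaCl in fresh medium was added to a final 200 mM, and cells were collected on the first day after 2, 4, 8, 12, and 24 h and on later days after 48 h, 72 h, and 96 h. Control cells received no NaCl. Neither the time at which they were collected nor an addition of fresh medium to them is named. Salt, dilution with fresh medium, culture age, and time of day therefore cannot be told apart in a comparison with them. Polyadenylated RNA of 3 samples per condition was sequenced, 27 libraries in 9 conditions. Nothing states that the 3 samples were separate cultures, so the p-values measure only the spread between these samples. In RNA from a whole culture, fewer cells that express a gene and less of its RNA per cell cannot be told apart.

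UDP-glucose is the activated form of glucose from which cells build glycans, glycolipids, and other nucleotide sugars. UDP-glucose pyrophosphorylase makes it from glucose 1-phosphate and UTP. UDP-glucose 6-dehydrogenase oxidizes it with NAD+ to UDP-glucuronate, a step that is irreversible and leads on to UDP-xylose and related sugars in plants. UDP-sulfoquinovose synthase joins it with sulfite in the chloroplast, which gives the head group of sulfoquinovosyl diacylglycerol (SQDG), the sulfolipid of thylakoid membranes. The members therefore encode an enzyme that makes UDP-glucose and enzymes that use it, toward other nucleotide sugars and toward the photosynthetic membrane. Other enzymes that make UDP-glucose were not analysed here, and transcript levels do not measure its supply or use.

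For UDP-sulfoquinovose synthase, the study lists the primer pair of its qRT-PCR under the name CHLREDRAFT_27658. The pair is shown as listed, and it was not aligned to any gene here. Both primers are 20 bases long with 55% G and C, and no capitals are used because no part is singled out.
CHLREDRAFT_27658 forward: gacatctgcgactgggagtt
CHLREDRAFT_27658 reverse: gtgccgatcacgttgttgtg

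Total counts ranged from 15286332 to 24783139 per library (median 18749997), and a member had between 509 and 16774 counts in a library, so the spread between samples rather than counting limits the precision. Within a gene, levels are in CPM, its share of the counts after TMM factors had corrected each library's total. Replicate 1 at 2 h and replicate 1 at 72 h stood apart, with 37.6% and 41.1% of their counts in their 50 most counted genes, against 20.4% to 31.2% in the other 25 libraries. The fold changes of the members at 2 h and 72 h against control are therefore also given without them. A gene counted as a DEG where the quasi-likelihood test of edgeR, in one fit of the 27 libraries, gave a Benjamini-Hochberg adjusted p below 0.05 over all 16443 genes, and the comparisons with control share the 3 control libraries.

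The members did not share one course. UDP-glucose 6-dehydrogenase was upregulated against control at 8 of 8 time points. UGP2 was upregulated at 2 and 4 h and downregulated at 8 h, and UDP-sulfoquinovose synthase was downregulated at 2, 4, and 8 h and upregulated at 12, 48, and 72 h. At 2 h, 2 of 3 members were upregulated, where 30.1% of all genes tested were, and 1 was downregulated (30.8% of all genes). The same split of 2 and 1 was found at 4 h (28.0% of all genes upregulated and 28.6% downregulated). At 8 h, 1 member was upregulated (28.4% of all genes) and 2 were downregulated (28.3%). At 12 h 2 members were upregulated (25.7% of all genes) and none downregulated (24.5%). The same held at 48 h (26.9% of all genes upregulated and 24.3% downregulated) and for 72 h (28.7% and 26.6%). At 24 h 1 member was upregulated (24.9% of all genes upregulated and 24.0% downregulated), as it was at 96 h (28.0% and 26.0%). So many genes changed that the number of members called says little by itself, and the size and timing of each change are described in what follows.

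**Figure D1:**
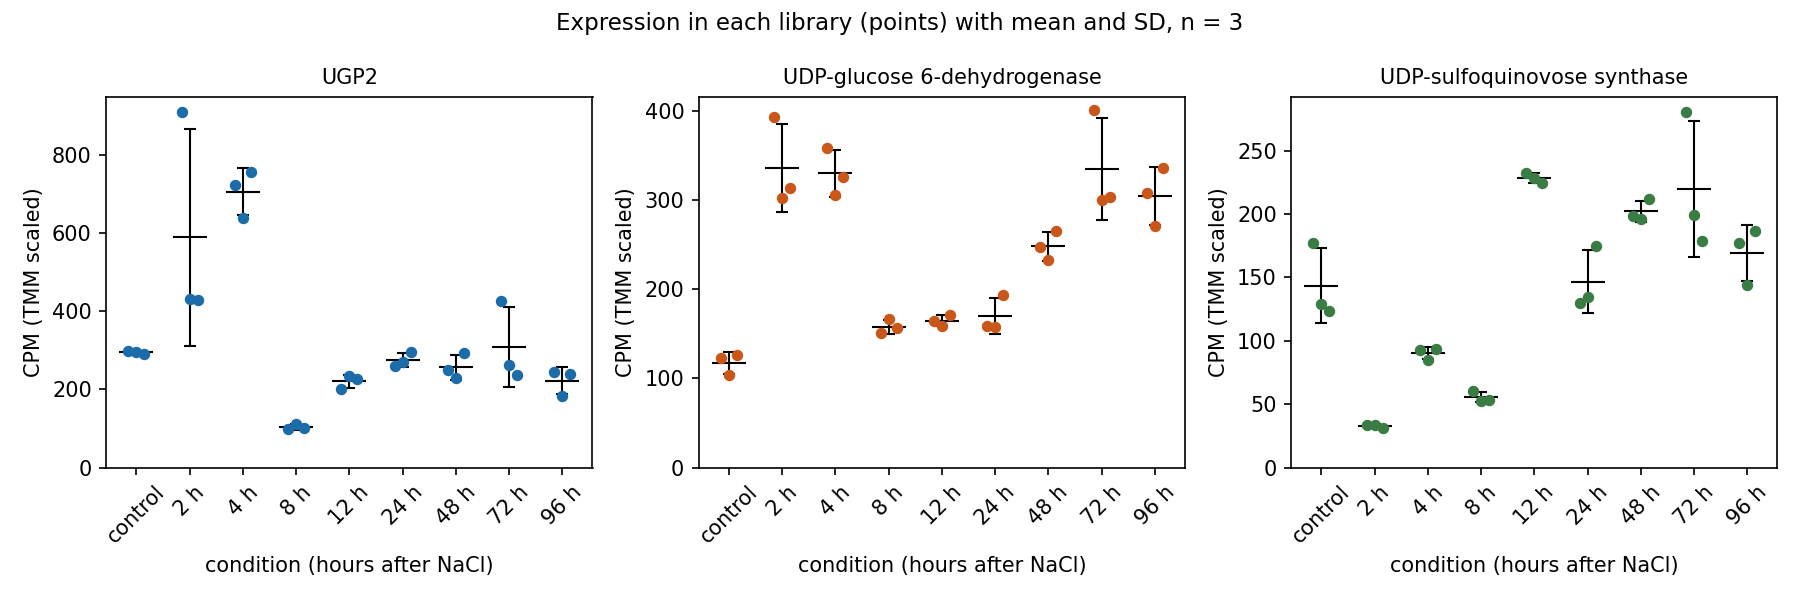
TMM scaled CPM (vertical axis, from 0) of the 3 genes in control samples and at 8 times after NaCl. Points are single libraries, and bars are the mean and SD of 3. UGP2 is highest at 4 h and lowest at 8 h, UDP-glucose 6-dehydrogenase lies above control throughout, and UDP-sulfoquinovose synthase is lowest at 2 h.

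UGP2, a UDP-glucose pyrophosphorylase, rose early and then fell below its control level at 8 h. Scaled by TMM, the control samples were nearly identical, at 297.5, 296.9, and 289.9 CPM. Scaled by total counts, they were at 216.9, 267.6, and 259.5. The TMM factor was 0.729 for control replicate 1, and 0.902 and 0.895 for replicates 2 and 3. At 2 h the libraries stood at 909, 430.1, and 428 CPM, and at 4 h at 724, 639.6, and 755 CPM. All 6 early libraries lay above every control library, and at 2 h one library was more than 2-fold above its replicates, which agreed closely. The gene was upregulated 2.00-fold at 2 h (log2 fold change 0.998, SE 0.22, adjusted p = 0.000294) and 2.40-fold at 4 h (log2 1.26, SE 0.22, adjusted p = 2.12e-05; edgeR). Without replicate 1 at 2 h, the log2 fold change at 2 h was 0.59 (adjusted p = 0.006) and remained called.

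At 8 h the 3 libraries held 99.6, 112, and 101 CPM of UGP2, far under the control range. That is a log2 fold change of -1.50 against control (SE 0.22, adjusted p = 1.76e-06), or a 2.83-fold lower level. Scaled by total counts, the log2 fold change was -0.985 and remained called. From 4 h to 8 h the level dropped 6.77-fold (log2 -2.76, 95% interval -3.24 to -2.28), and 0.444% of all genes tested had a more negative value in this comparison. It then rose 2.12-fold from 8 h to 12 h (log2 1.09, SE 0.22).

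From 12 h on, UGP2 did not pass the test against control at any of the 5 time points. The log2 fold change was -0.41 at 12 h (95% interval -0.86 to 0.03), -0.10 at 24 h (-0.54 to 0.35), and -0.20 at 48 h (-0.64 to 0.25). It was 0.06 at 72 h (-0.38 to 0.51) and -0.41 at 96 h (-0.85 to 0.04). These intervals include 0 and reach to 0.51 above it and to 0.86 below it on the log2 scale. At 72 h, replicate 1 had 427 CPM and the others 263 and 236, and without it the value was -0.17 (adjusted p = 0.534). The 12 h libraries (202 to 235 CPM) and the 96 h libraries (184 to 243 CPM) all lay under the lowest control library when scaled by TMM. Scaled by total counts, the log2 fold change was -0.20 at 12 h (adjusted p = 0.185) and turned to 0.05 at 96 h (adjusted p = 0.745), and that at 48 h turned to 0.14. In fits of only the 6 libraries compared, where the spread at 2 h does not enter, UGP2 was downregulated at 12 h (log2 -0.39, adjusted p = 0.0145) and at 96 h (log2 -0.40, adjusted p = 0.047).

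Ordered by level, 4 h and 2 h came first (706 and 589 CPM) and did not differ beyond their spread (log2 difference 0.26, 95% interval -0.18 to 0.71). Without replicate 1 at 2 h, 4 h exceeded 2 h by 0.75 on the log2 scale (adjusted p = 0.0102). Next, with no difference between neighbours that passed the test, came 72 h (308 CPM), control (295), 24 h (275), 48 h (257), 96 h (223), and 12 h (221). The step from 2 h down to 72 h passed the test (log2 0.93, adjusted p = 0.000882), as did the last one, from 12 h to 8 h (104 CPM).

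UDP-glucose 6-dehydrogenase, which commits UDP-glucose to UDP-glucuronate, was the member with the most lasting rise, in an early and a late phase with a lower stretch between them. Control samples held 122.5, 104, and 126 CPM. The 2 h libraries held 393, 302, and 313 CPM and the 4 h libraries 358, 306, and 326 CPM. Every one of the 24 NaCl treated libraries lay above the highest control library. The early change was 2.86-fold at 2 h (log2 1.52, SE 0.14, adjusted p = 5.02e-10) and 2.81-fold at 4 h (log2 1.49, SE 0.14, adjusted p = 9.15e-10). Without replicate 1 at 2 h, the log2 fold change at 2 h was 1.44.

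Between 4 h and 8 h the level of UDP-glucose 6-dehydrogenase fell by 1.06 on the log2 scale (95% interval -1.35 to -0.78). It then lay at 151, 167, and 157 CPM at 8 h, at 159 to 170.5 CPM at 12 h, and at 158 to 194 CPM at 24 h. In this stretch the log2 fold changes against control were 0.43, 0.49, and 0.53 (SE 0.14 each, adjusted p = 0.0102, 0.00475, and 0.00239). They were the smallest changes of this gene, and the call at 8 h was lost when replicate 2 of the control samples was left out (log2 0.37, adjusted p = 0.0551). Scaled by total counts, the value at 8 h was 0.95.

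From 24 h to 48 h the gene rose again (log2 0.54, SE 0.14, adjusted p = 0.00763), a call that was lost without replicate 2 at 24 h (log2 0.495, adjusted p = 0.056) or replicate 3 at 48 h (log2 0.48, adjusted p = 0.0513). The 48 h libraries held 247, 233, and 265 CPM, the 72 h libraries 401, 299.9, and 303 CPM, and the 96 h libraries 307, 270.2, and 335 CPM. Against control these are changes of 2.11-fold at 48 h (log2 1.08, adjusted p = 3.02e-07), 2.85-fold at 72 h (log2 1.51, adjusted p = 8.53e-10), and 2.59-fold at 96 h (log2 1.37, adjusted p = 4.53e-09). Without replicate 1 at 72 h the log2 fold change at 72 h was 1.43. At 72 and 96 h the level was therefore near that of 2 and 4 h, while the mean at 48 h was lower. The means of 2 h (336 CPM), 72 h (335), 4 h (329.96), and 96 h (304) followed each other in the order of levels with no neighbouring difference past the test, and 2 h against 72 h differed by 0.00 on the log2 scale (95% interval -0.28 to 0.29). In this order, 96 h against 48 h (248 CPM) did not pass the test (log2 difference 0.30, 95% interval 0.01 to 0.58, adjusted p = 0.32). The level at 48 h exceeded that at 24 h (170.0 CPM), and that at 8 h exceeded control, the lowest.

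UDP-sulfoquinovose synthase, the entry to sulfolipid synthesis, showed the opposite early course. Control samples held 177, 129, and 124 CPM. The 2 h libraries held 33.7, 33.5, and 31.5 CPM. These were the lowest values of the gene, far under the control range, and with little spread when scaled by TMM. The gene was downregulated 4.36-fold at 2 h (log2 -2.12, SE 0.16, adjusted p = 1.37e-11), and without replicate 1 at 2 h the log2 fold change was -2.096.

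At 4 h the libraries held 92.9, 84.6, and 93.7 CPM of UDP-sulfoquinovose synthase. This was a 2.75-fold rise from 2 h (log2 1.46, 95% interval 1.13 to 1.79), one of the larger rises between these times, since 2.86% of all genes had a higher value. Against control the gene was still downregulated (log2 -0.67, SE 0.16, adjusted p = 0.000731), and by less when replicate 1 of the control samples was left out (log2 -0.40, adjusted p = 0.043). At 8 h it fell once more, to 60.6, 52.9, and 53.7 CPM (log2 -0.70 from 4 h, SE 0.16, and -1.36 from control, adjusted p = 3.64e-08). Scaled by total counts, which moves the median of all genes by 0.36 at 4 h and by 0.52 at 8 h on the log2 scale, the change against control was -0.29 at 4 h (adjusted p = 0.0568) and -0.83 at 8 h.

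Between 8 h and 12 h UDP-sulfoquinovose synthase rose 4.10-fold (log2 2.03, SE 0.16), and 1.70% of all genes had a higher value in this comparison. The 12 h libraries held 232, 228, and 224 CPM, all above the highest control library, and the gene was upregulated against control (log2 0.67, SE 0.16, adjusted p = 0.000803). At 24 h it stood at 130.2, 134, and 175 CPM, within the control range, with a log2 fold change of 0.03 (95% interval -0.29 to 0.35). The course thus crossed the control level between 8 h and 12 h.

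At 48 h the libraries held 199, 196.5, and 212 CPM, and at 72 h 280.4, 199, and 179 CPM. Scaled by TMM, all 6 lay above the control range, the lowest by a small margin. Under another scaling, by median of ratios, replicate 3 at 72 h was at 177.3 and control replicate 1 at 181.5. The gene was upregulated at 48 h (log2 0.50, SE 0.16, adjusted p = 0.00977) and at 72 h (log2 0.61, SE 0.16, adjusted p = 0.0017). Without replicate 1 at 72 h the latter was 0.47 (adjusted p = 0.0138), and scaled by total counts the former was 0.86. At 96 h the libraries held 177, 144, and 187 CPM, which overlapped with the control range, and the log2 fold change of 0.24 (95% interval -0.08 to 0.56) did not pass the test. Without replicate 1 of the control samples, the highest of the control values, it was 0.50 (adjusted p = 0.015).

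In the order of its levels, 12 h (228 CPM), 72 h (219.5), 48 h (202), 96 h (169), 24 h (147), and control (143) followed each other without a neighbouring difference that passed the test. Below them, each step passed it, from control to 4 h (90.4 CPM), from 4 h to 8 h (55.7), and from 8 h to 2 h (32.9, log2 difference of 0.76, 95% interval 0.43 to 1.09).

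**Figure D2:**
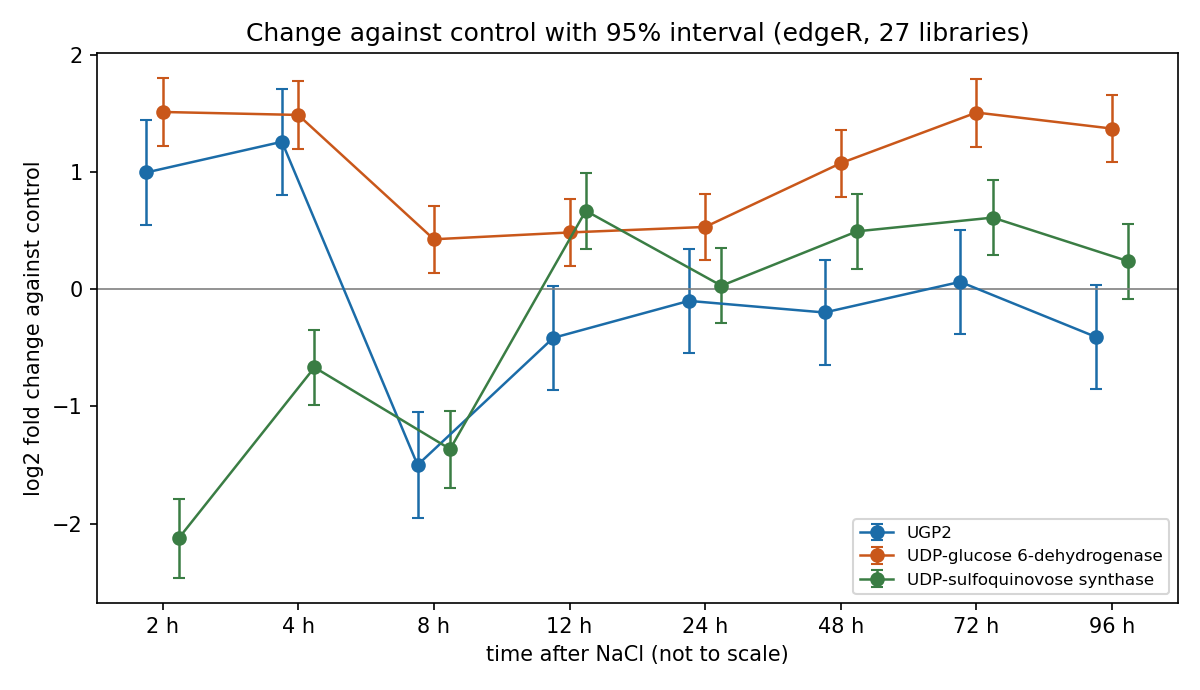
Log2 fold change against control (vertical axis) at each time after NaCl, with the 95% interval from the edgeR fit of 27 libraries. The curve of UGP2 falls from 1.26 at 4 h to -1.50 at 8 h, that of UDP-sulfoquinovose synthase rises from -1.36 at 8 h to 0.67 at 12 h, and that of UDP-glucose 6-dehydrogenase stays above 0.

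The step from 4 h to 8 h was the only one of the 7 between neighbouring time points in which all 3 members were called in the same direction. All 3 were downregulated there, where 17.9% of all genes tested were and 16.3% were upregulated. In the step from 8 h to 12 h, 2 of 3 were upregulated (15.0% of all genes, with 11.2% downregulated). From 24 h to 48 h, 2 of 3 were upregulated (6.42% of all genes, with 7.46% downregulated), though UDP-sulfoquinovose synthase only just (log2 0.46, adjusted p = 0.0464), a call that was lost with RLE size factors (adjusted p = 0.0528) and on leaving out any of 18 of the 27 libraries, those of other conditions included (adjusted p of up to 0.183). It was 1 of 3 from 2 h to 4 h (5.76% of all genes upregulated and 6.26% downregulated), and 1 of 3 was downregulated from 12 h to 24 h (9.55% of all genes, with 8.93% upregulated). No member was called by edgeR from 48 h to 72 h (1.67% of all genes upregulated and 1.33% downregulated) or from 72 h to 96 h (0.0426% and 0.122%). In the first of these steps UDP-glucose 6-dehydrogenase had a log2 difference of 0.43 (95% interval 0.15 to 0.72, adjusted p = 0.0845), which DESeq2 called (log2 0.47, adjusted p = 0.0268). Called by edgeR, too, was this difference with at least 10 counts in every library (log2 0.44, adjusted p = 0.0473) and without replicate 1 at 2 h (log2 0.47, adjusted p = 0.0296). The same difference was 0.32 (adjusted p = 0.413) without replicate 1 at 72 h, and 0.197 (adjusted p = 0.458) with total counts. In the last step, UGP2 (log2 -0.47) and UDP-sulfoquinovose synthase (log2 -0.37) had adjusted p-values of 0.617 and 0.568. These differences were -0.165 and -0.16 without replicate 1 at 72 h.

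Across the 9 conditions, the condition means of UGP2 spanned 6.76-fold and those of UDP-sulfoquinovose synthase 6.93-fold, more than in 73.9% and 74.7% of the genes tested. The span of UDP-glucose 6-dehydrogenase was 2.85-fold, more than in 31.9% of them. The gene with the steadiest direction was thus the one with the smallest range.

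Levels of different genes can be compared only per length, for which the deposited FPKM values were used. In the control samples, UGP2 was highest (124 ± 1.09 FPKM, SD, n = 3), and UDP-glucose 6-dehydrogenase (58.7 ± 6.08) and UDP-sulfoquinovose synthase (68.0 ± 13.4) overlapped. At 2 h the mean FPKM levels were 246 ± 127 for UGP2, 165 ± 31.4 for UDP-glucose 6-dehydrogenase, and 15.3 ± 1.01 for UDP-sulfoquinovose synthase. The sulfolipid enzyme was then well under the other members, and by mean FPKM it stood above 69.5% of the genes tested, compared with 91.0% in the control samples. At 8 h, UDP-glucose 6-dehydrogenase was highest (74.3 to 81.8 FPKM), UGP2 next (41.3 to 46.4 FPKM), and UDP-sulfoquinovose synthase lowest (24.7 to 28.4 FPKM), with no overlap. At 12 h UDP-sulfoquinovose synthase was highest (102 to 106 FPKM), above UGP2 (81.5 to 94.4) and UDP-glucose 6-dehydrogenase (75.7 to 81.7). At 96 h UDP-glucose 6-dehydrogenase was highest again (131 to 161 FPKM), and UGP2 (75.4 to 99.1) and UDP-sulfoquinovose synthase (66.8 to 85.3) overlapped. Each of the 3 genes was therefore the highest of them in at least 1 condition.

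Ratios of counts within a library do not depend on how libraries are scaled, and they show where members moved unequally. For 3 ratios at 8 time points, 24 comparisons with control were made by a two-sided exact permutation test, in which 3 samples against 3 cannot give a p below 0.1. In 19 of them the NaCl treated libraries did not overlap with control, each with an exact permutation p = 0.1 (0.126 after Benjamini-Hochberg adjustment over the 24). Over the same times, the ratio of any of 13151 genes counted in every library to UGP2 did not overlap with control in 65.0% of cases, and that to UDP-glucose 6-dehydrogenase in 72.1%. With 12 of 16 for UGP2 as the denominator and 7 of 8 for UDP-glucose 6-dehydrogenase, the members' ratios were near these shares, and their sizes are given as a description.

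The ratio of UDP-glucose 6-dehydrogenase to UGP2, in read counts not corrected for gene length, lay between 0.349 and 0.436 in the control samples. The other ratios below are of read counts too. At 8 h it lay between 1.48 and 1.55, a 3.82-fold higher mean. At 12 h it had come down to 0.677 to 0.813 and at 24 h to 0.583 to 0.654, still above control. It was 0.906 to 1.01 at 48 h, 0.94 to 1.29 at 72 h, and 1.26 to 1.47 at 96 h, the last 3.46-fold above control. At 2 h (0.432 to 0.732) and at 4 h (0.432 to 0.495) it overlapped with the control range (exact permutation p = 0.2 each). At 2 h the overlap came from replicate 1 (0.432), the library that stands apart, while replicates 2 and 3 (0.701 and 0.732) lay above every control library, and without replicate 1 the mean log2 change was 0.85 in place of 0.61.

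The ratio of UDP-sulfoquinovose synthase to UGP2 was 0.426 to 0.596 in the control samples. It was 8.04-fold lower at 2 h (0.0371 to 0.0778) and 3.75-fold lower at 4 h (0.124 to 0.132). At 8 h, when both genes were downregulated, it was back at 0.471 to 0.609 and overlapped with control (exact permutation p = 0.5). It was above control at 12 h (0.974 to 1.15), overlapped at 24 h (0.496 to 0.591), and was above control again at 48, 72, and 96 h, by 1.51-fold to 1.65-fold on average.

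The ratio of the consuming enzymes to each other, UDP-sulfoquinovose synthase to UDP-glucose 6-dehydrogenase, was 0.979 to 1.45 in the control samples. It fell 12.3-fold at 2 h (0.0859 to 0.111), the widest change of the 24. It was 4.41-fold lower at 4 h and 3.43-fold lower at 8 h, reached the control range at 12 h (1.32 to 1.44), and lay below it again from 24 h (0.821 to 0.904) to 96 h (0.534 to 0.576, 2.18-fold lower). The lower ratio at 48 and 72 h stood beside an upregulation of both genes, of which that of UDP-glucose 6-dehydrogenase was larger.

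**Figure D3:**
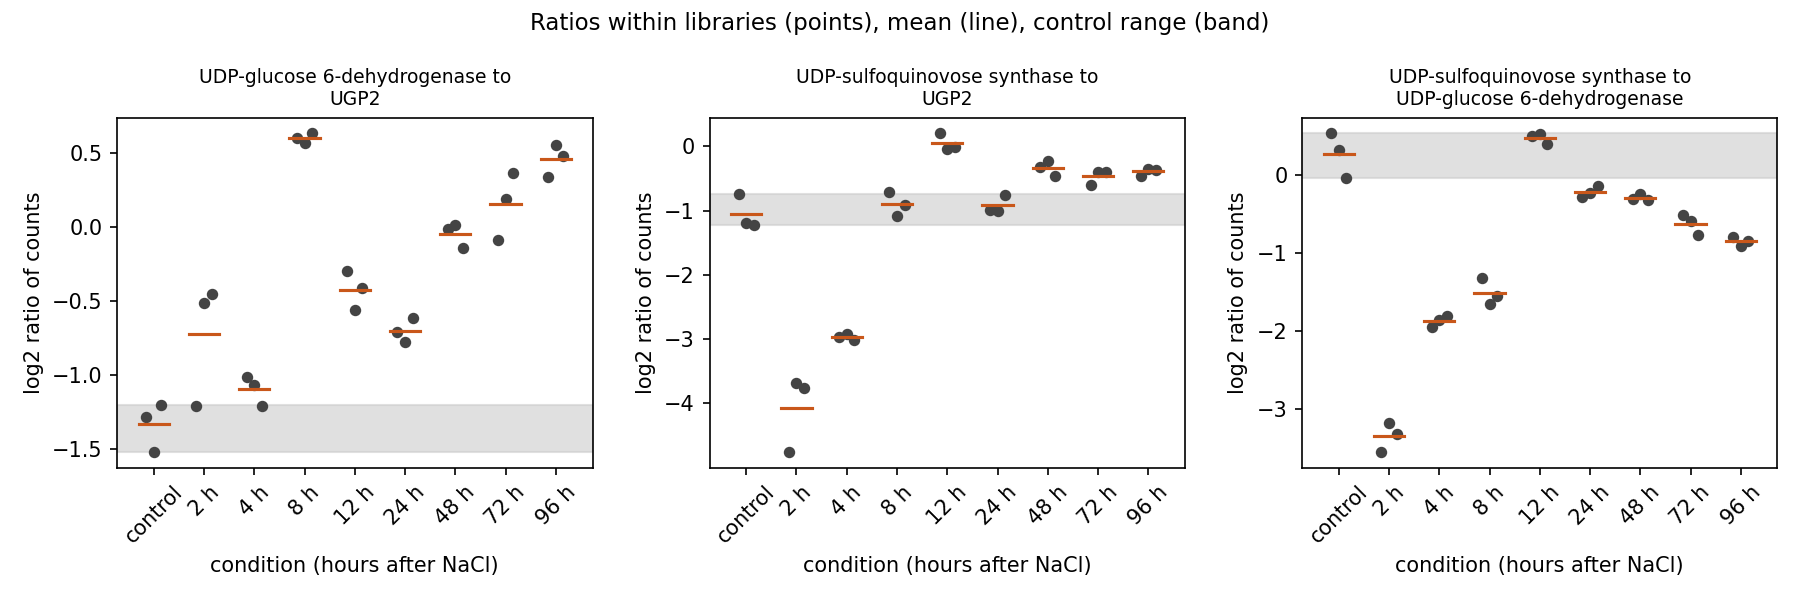
Log2 ratio of counts within each library for 3 pairs of genes (points, with the mean of 3 as a line) in control samples and at 8 times after NaCl. The grey band is the range of the control samples. The ratio of UDP-sulfoquinovose synthase to UDP-glucose 6-dehydrogenase lies 12.3-fold below control at 2 h and inside the band at 12 h.

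The libraries that stand apart weighed unequally on the members. Scaled by TMM, replicate 1 at 2 h was the highest of its condition for UGP2 (909 against 430.1 and 428) and for UDP-glucose 6-dehydrogenase (393 against 302 and 313), and level with its replicates for UDP-sulfoquinovose synthase. Scaled by total counts, it was still the highest for UGP2 (656 against 474 and 480.5) but the lowest for UDP-glucose 6-dehydrogenase (283.5 against 333 and 352). Under total counts it was also the lowest for UDP-sulfoquinovose synthase (24.3 against 36.9 and 35.4). At 72 h the 3 libraries of UGP2 were at 289, 262, and 263 under total counts, against 427, 263, and 236 under TMM. What sets these libraries apart was not tested.

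**Figure D4:**
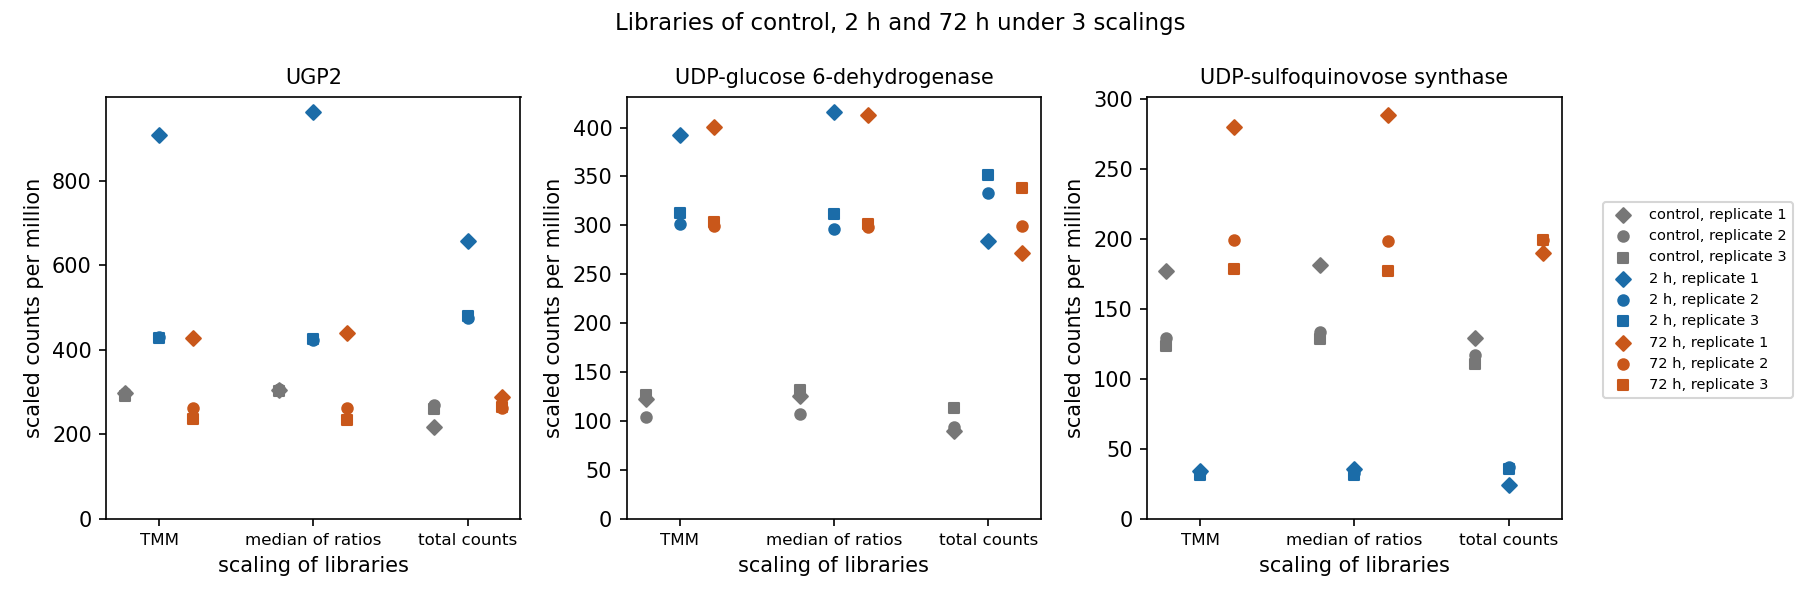
Scaled CPM (vertical axis, from 0) of the 3 genes in each library of control, 2 h, and 72 h, with libraries scaled by TMM, by median of ratios, or by total counts. Replicate 1 (diamonds) of 2 h lies at 909 for UGP2 under TMM and at 656 under total counts.

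Of other genes around UDP-glucose, the paper names UGT-80 (CHLREDRAFT_154976), a UDP-glucosyltransferase, a class of enzymes that transfer glucose from UDP-glucose to an acceptor. Its 3 control libraries held 8.89, 8.69, and 6.59 CPM, the 2 h libraries 55.9, 77.7, and 70.7 CPM, and the gene was upregulated 8.45-fold at 2 h (log2 3.08, SE 0.22, adjusted p = 1.78e-12) and at 4, 8, 12, and 48 h. Over the 4 listed genes and 8 time points, 18 of 32 pairs were called higher and 4 lower than control, against 27.6% higher and 26.6% lower over all genes tested. Of the 4 lower pairs, 3 were in UDP-sulfoquinovose synthase and 1 in UGP2. The paper names UGP2 and UGT-80 for their upregulation in these libraries, and picked UDP-sulfoquinovose synthase for qRT-PCR as a downregulated gene. It also lists the synthase, with the dehydrogenase, in a comparison with published studies of salt stress. How it chose the genes of that comparison is not stated. Since the list was chosen at least in part on the same libraries, the counts are no independent evidence of a direction.

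Over the 27 libraries, Pearson's r of log2 CPM was 0.56 between UGP2 and UDP-glucose 6-dehydrogenase, -0.17 between UDP-sulfoquinovose synthase and UGP2, and -0.12 between UDP-sulfoquinovose synthase and UDP-glucose 6-dehydrogenase. The libraries share conditions and scaling, and these values are a description. For each member, the genes with the highest r were taken from 12719 genes. That their r exceeds the values between members follows from this selection. Where the members rank among these genes was not tested. The closest to UGP2 were CHLREDRAFT_149530 (r = 0.94), CHLREDRAFT_195887 (0.93), and CHLREDRAFT_156907 (0.93), whose log2 fold changes at 8 h were -0.89, -0.73, and -0.64, smaller than that of UGP2. The closest to UDP-glucose 6-dehydrogenase were CHLREDRAFT_127079 (0.95), CHLREDRAFT_150738 (0.95), and CHLREDRAFT_158152 (0.94), with log2 fold changes of 2.25, 1.997, and 1.96 at 2 h and of 1.90, 1.46, and 1.39 at 96 h. The closest to UDP-sulfoquinovose synthase were CHLREDRAFT_205510 (0.95), CHLREDRAFT_143365 (0.95), and a transcript that the authors assembled (0.93), and the log2 fold changes of the first and the second at 2 h were -1.997 and -0.91.

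In the reference table, the 3 members lie on 3 different chromosomes, and none overlaps with the gene next to it on either side. Transcripts assembled by the authors and antisense reads were not checked for overlap. Of the neighbours found in the count table under a matching identifier, CHLREDRAFT_192974 and CHLREDRAFT_176916 had means of 8 and 2 counts per library and are not described. CHLREDRAFT_171117, next to UGP2, had log2 fold changes of -0.47 at 2 h, 0.94 at 4 h, and -0.79 at 8 h. CHLREDRAFT_151334, next to UDP-glucose 6-dehydrogenase, had log2 fold changes of -1.52 at 2 h, -1.42 at 4 h, and -0.67 at 72 h, where the member had the opposite sign.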

How the data were processed

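Per the labels and the paper's methods, the authors removed reads with adapters, undetermined bases, or low quality, aligned the rest with HISAT2 2.0.5, assembled further transcripts with StringTie 1.3.3b, and counted reads per gene with featureCounts. The deposited counts are whole numbers without normalization. The reference genome and its annotation came from Ensembl Genomes. The name of the assembly, the strand setting, and the treatment of reads mapping to several genes are not given in the sources used here. The authors also deposited FPKM values. Dividing counts by FPKM within 6110 well counted genes gave median-of-ratios size factors and differed from total counts by up to 80.8%, so the FPKM values already carry a normalization between libraries.

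Here, edgeR 4.0.16 in R 4.3.3 was run on the counts of all 27 libraries (filterByExpr, TMM, quasi-likelihood test, a term per condition, two-sided, Benjamini-Hochberg adjustment over 16443 genes). Standard errors were taken from the fold change and the F statistic. The calling was run on simulated data with few changed genes, the same spread for every gene, and no library standing apart. That run therefore does not show how the calling behaves on these data. Replicates of a condition differed beyond sampling noise in every pair (chi-square per degree of freedom of 6.62 to 226), so none was counted as a repeat deposit of another. Ratios, correlations, and figures used Python 3.11.15 (scipy 1.17.1, pandas 2.3.3, numpy 2.4.6, matplotlib 3.10.9). The alternatives were DESeq2 1.42.0, RLE factors, other filters on low counts, fits of only the 6 libraries compared, a replicate block, an absolute log2 fold change above 1, and leaving out each library. Total counts in place of TMM, and leaving out replicate 1 of 2 h and of 72 h together, were chosen after seeing the data.

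The members and lists were chosen with earlier results of these data known. Genes named beside the members are those that the paper names in the pathway lists, and for each member the 3 genes with the highest Pearson r over 27 libraries among 12719 genes whose mean count reached 50. The pathway lists were to be filled from product names and from similar proteins. The gene table of Chlamydomonas_reinhardtii_v5.5 contains 3 of 3 members but holds no product name and no symbol (0 of 17742 genes), so only 4 genes could be listed, and similar proteins were not analysed here. qRT-PCR was not analysed here.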

Additional observations from a re-analysis of the deposited data

Results flagged for a closer look

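With 3 libraries per condition, single libraries could not be tested as outliers. Over all genes tested, the share called in a step between neighbouring time points ranged widely. From 4 h to 8 h, 16.3% of all genes were upregulated and 17.9% downregulated. From 72 h to 96 h, these shares were 0.0426% and 0.122%. The count of members called is to be read beside these shares. Of the members' 21 differences between neighbouring time points, 9 passed edgeR's test at a Benjamini-Hochberg adjusted p below 0.05. Passing means that the change against the shared control samples differed between the neighbouring times.

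For UGP2, these were the fall from 4 h to 8 h (log2 -2.76) and the rise from 8 h to 12 h (log2 1.09). For UDP-glucose 6-dehydrogenase, they were the fall from 4 h to 8 h (log2 -1.06) and the rise from 24 h to 48 h (log2 0.54). For UDP-sulfoquinovose synthase, they were the rise from 2 h to 4 h (log2 1.46), the fall from 4 h to 8 h (log2 -0.70), the rise from 8 h to 12 h (log2 2.03), the fall from 12 h to 24 h (log2 -0.64), and the rise from 24 h to 48 h (log2 0.46).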

How the results depend on the processing

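Against control, 837 of 864 values of the members under alternatives kept their direction and side of the threshold, 7 came past it, 10 lost it, and 10 changed sign. Between neighbouring time points, 680 of 735 kept both, 7 came past it, 21 lost it, and 27 changed sign. For each comparison, 27 of the alternatives leave out 1 library, mostly one of neither condition compared, which moves the fold change little. Both tallies therefore overstate how stable the values are. The sign changed only in values not called in the fit of 27 libraries. Against control, UDP-sulfoquinovose synthase at 24 h turned to -0.045 with RLE factors and with DESeq2 and to -0.046 with at least 10 counts in every library. With total counts, UGP2 turned to 0.14 at 48 h and 0.052 at 96 h, and the steps of UDP-glucose 6-dehydrogenase to 0.14 (2 h to 4 h), -0.25 (8 h to 12 h), -0.13 (12 h to 24 h), and 0.22 (72 h to 96 h), those of UGP2 to 0.198 (24 h to 48 h) and -0.011 (48 h to 72 h), and that of UDP-sulfoquinovose synthase to -0.14 (48 h to 72 h). Without replicate 1 of 2 h and of 72 h together, UGP2 at 72 h turned to -0.17, and the steps of UDP-glucose 6-dehydrogenase to 0.13 (2 h to 4 h) and 0.011 (72 h to 96 h), of UGP2 to -0.0070 (48 h to 72 h), and of UDP-sulfoquinovose synthase to -0.059 (48 h to 72 h). With at least 10 counts in every library, the step of UDP-glucose 6-dehydrogenase from 8 h to 12 h was -0.018. With single libraries left out, UDP-sulfoquinovose synthase at 24 h ranged from -0.090 to 0.25 and UGP2 at 72 h from -0.17 to 0.23, and the steps of UDP-glucose 6-dehydrogenase from -0.095 to 0.13 (2 h to 4 h), -0.069 to 0.096 (12 h to 24 h), and -0.21 to 0.011 (72 h to 96 h), and from 48 h to 72 h that of UGP2 from -0.0071 to 0.42 and that of UDP-sulfoquinovose synthase from -0.059 to 0.24. Requiring an absolute log2 fold change above 1 removed UGP2 at 2 h (0.998), UDP-glucose 6-dehydrogenase at 8, 12, and 24 h (0.43, 0.49, and 0.53), and UDP-sulfoquinovose synthase at 4, 12, 48, and 72 h (-0.67, 0.67, 0.50, and 0.61), and lowered the pairs of listed gene and time called higher from 18 to 10. Total counts in place of TMM left UDP-sulfoquinovose synthase at -0.29 at 4 h (not called) and 0.72 at 96 h (called). Fits of the 6 libraries compared called UGP2 at 12 h (-0.39) and 96 h (-0.40). Without replicate 1 of 2 h and of 72 h together, UGP2 was called at 12 h (-0.37) and 96 h (-0.34), and UDP-sulfoquinovose synthase at 96 h (0.31). On leaving out single libraries, UDP-glucose 6-dehydrogenase at 8 h ranged from 0.37 to 0.51, UDP-sulfoquinovose synthase at 96 h from 0.17 to 0.50, UGP2 at 2 h from 0.59 to 1.18, and the pairs called higher from 17 to 19. The cause of these changes was not tested. Replicate numbers did not pair the samples. The correlation of deviations was over 0.1 in 13 of 108 pairs of the same number and in 23 of 216 pairs of different number. The median correlation was -0.00034 for the same number and 0.0025 for different numbers. With a replicate block, UGP2 at 2 h was 0.96, and none of the 24 and 21 calls changed. Of the 3 genes most like each member, 2, 2, and 3 were kept with log2(FPKM + 1), and 2, 1, and 1 with the 9 condition means, for UGP2, UDP-glucose 6-dehydrogenase, and UDP-sulfoquinovose synthase.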
